A study of Mus musculus with 8 samples.

Results

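Heat shock chaperones are the proteins that fold new polypeptides, hold unfolded ones in solution and refold damaged ones. The genes described here are the 10 best known of the cytosol and the mitochondrion: *Hspa1a*, *Hspa1b*, *Hspa8*, *Hsp90aa1*, *Hsp90ab1*, *Hspd1*, *Hspe1*, *Hsph1*, *Dnajb1* and *Hspb1*. They were taken by symbol from the 54752 genes in the count tables, and each was found on 1 row. All 10 passed the filter on low counts and are among the 17865 genes tested.

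Each library was the RNA of the brain of 1 wild type C57BL/6 fetus (C57BL/6Slac in the methods) at E15.5, a whole brain by the methods and "half_whole_brain" in the study's animal list. In the stress group the pregnant dam went through chronic unpredictable mild stress (CUMS), a changing daily programme of restraint in a tube, fox odour, wet bedding and light overnight, from E5.5 to E14.5. Dams of the control group had no CUMS. The control group had 4 brains, F36 and F37 from females with M30 and M31 from males. The stress group also had 4, F34 and F35 from females with M28 and M29 from males. The study's animal list puts the 4 control brains in 1 litter and the 4 stressed brains in 1 other litter, so condition and litter cannot be told apart, and the errors given describe the spread among littermates. Library totals were between 25320109 and 29105710 counts.

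HSP70 proteins bind short exposed stretches of a client protein in cycles of ATP hydrolysis that J-domain proteins start and nucleotide exchange factors end. HSP90 receives many of these clients, among them steroid receptors and kinases, in a nearly folded state. In the mitochondrion the HSP60 ring and its HSP10 lid enclose a protein while it folds. When unfolded protein builds up in a cell, heat shock factor 1 (HSF1) binds repeats of an inverted 3-base unit in front of these genes, the heat shock element, and raises their transcription, most of all that of *Hspa1a*, *Hspa1b*, *Dnajb1*, *Hsph1* and *Hspb1*. *Hspa8* and *Hsp90ab1* are made at high levels in unstressed cells.

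No chaperone of the 10 rose in the stressed brains, and 4 fell: *Hspa1a*, *Hspb1*, *Hsph1* and *Hspa8* (edgeR's quasi-likelihood test, adjusted p under 0.05). Of all genes tested, 7.27% were called lower in stress and 6.49% higher. The stressed brains lay below all control brains for the same 4 genes, a pattern without overlap that 8.22% of all genes tested had downward and 8.20% upward, the latter with none of the 10. The median Log2FC (stress vs. control) was -0.079 over the 10 chaperones and 0.0015 over all genes tested. The drop was large for a pair of genes with few counts, *Hspa1a* and *Hspb1*, and small for *Hsph1* and *Hspa8*, which had at least 4436 counts in every brain. In a whole brain, fewer cells that express a gene and less of its RNA per cell cannot be told apart.

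**Figure D1:**
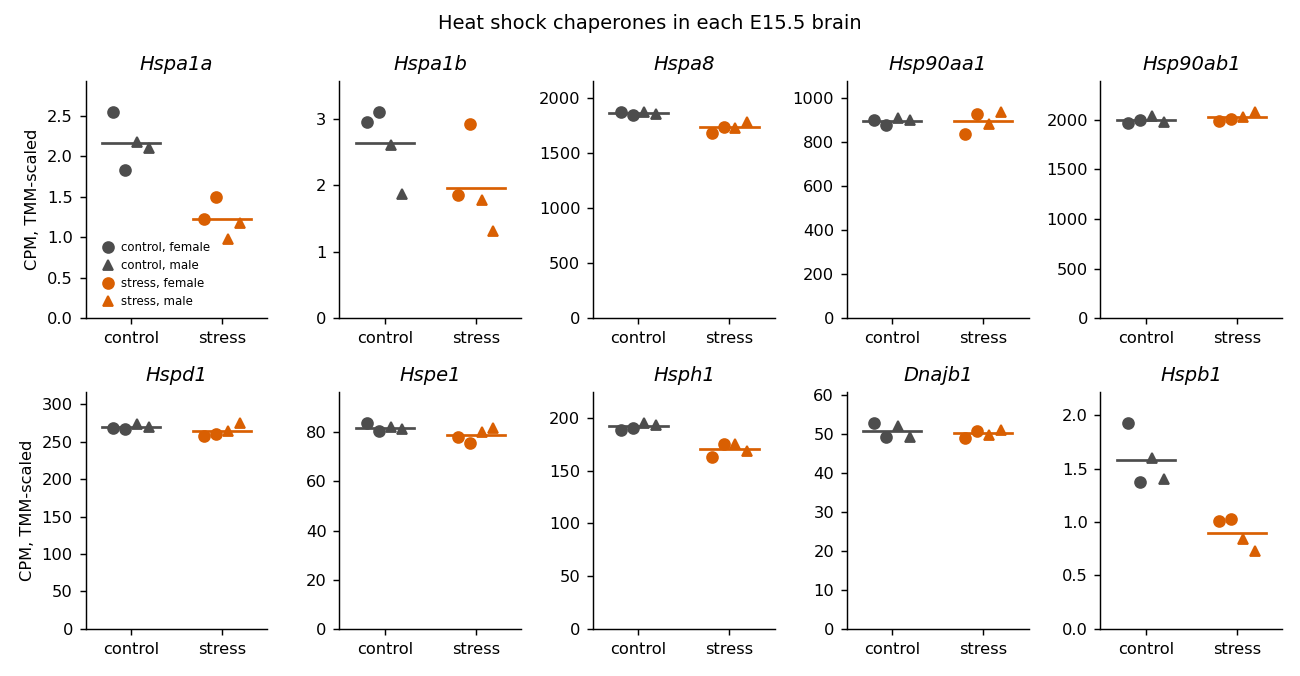
CPM on TMM-scaled totals (vertical axes, each from 0) of the 10 chaperone genes in each brain, controls in grey and stressed brains in orange, females as circles and males as triangles, with lines at the group means (n = 4). The stressed brains sit below all control brains for Hspa1a, Hspa8, Hsph1 and Hspb1, and the groups overlap for the other 6 genes.

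The letters in front of the inducible genes are shown first, because the HSF1 unit is what these genes are known for. Sequences are RefSeq promoter windows on GRCm38, from 250 bases before to 50 bases after a start, and 7 of the 10 genes had at least 1 window. The pairs of units searched were GAANNTTC and TTCNNGAA, each of which reads the same on both strands. The triplets were GAANNTTCNNGAA and TTCNNGAANNTTC, each the other's reverse strand and each made of overlapping pairs. Capitals mark every matched pair. The search took exact letters only, so units with a mismatched base were missed and are not marked or counted. *Hspa1a* and *Hspa1b*, neighbours on chromosome 17, are shown from position -250 to -1 because they are near copies of each other.

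*Hspa1a* (chr17:34972157-34972406, minus strand): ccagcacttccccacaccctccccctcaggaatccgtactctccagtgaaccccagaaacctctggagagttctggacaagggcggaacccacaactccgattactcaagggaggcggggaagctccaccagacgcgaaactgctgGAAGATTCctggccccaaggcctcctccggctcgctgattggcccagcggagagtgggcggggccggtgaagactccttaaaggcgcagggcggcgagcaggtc
*Hspa1b* (chr17:34959239-34959488, minus strand): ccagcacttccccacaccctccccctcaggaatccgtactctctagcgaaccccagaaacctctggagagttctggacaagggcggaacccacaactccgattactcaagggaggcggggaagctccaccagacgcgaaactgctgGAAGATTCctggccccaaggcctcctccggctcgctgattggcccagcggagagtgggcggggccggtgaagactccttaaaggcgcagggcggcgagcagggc

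The 250 bases of the pair differed at 3 positions, and the matched GAAGATTC began 104 bases before the start in both. *Hspb1*, the other gene with a large drop, had pairs 117 and 97 bases before its start. *Hspe1* and *Hsph1* are shown by 30 bases each because they held a triplet.

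*Hspb1* (chr5:135887782-135887849, plus strand): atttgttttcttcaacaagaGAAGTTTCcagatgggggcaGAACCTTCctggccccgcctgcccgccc
*Hspe1* (chr1:55088053-55088082, plus strand): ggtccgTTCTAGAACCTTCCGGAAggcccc
*Hsph1* (chr5:149636287-149636316, minus strand): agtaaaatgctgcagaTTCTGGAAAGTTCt

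*Hspe1* and *Hspd1* stand head to head on chromosome 1, and the run in front of *Hspe1* is the same stretch of DNA that the other strand reads in a window of *Hspd1*. The *Hsph1* triplet lay behind the start, 37 bases into the transcribed part of the window shown and 16 into that of its other window. A further *Hsph1* pair lay in front of these starts, by 33 and 54 bases. A pair was found for 6 of the 7 genes with a window and for 17.0% of all 27025 gene symbols with one (15.1% of all 32851 windows). A triplet was found for 3 of the 7, namely *Hspd1*, *Hspe1* and *Hsph1*, and for 0.662% of all symbols (0.603% of all windows). *Hspd1* and *Hspe1* share theirs, and *Hspa1a* and *Hspa1b* have near-identical windows, so these genes are not separate cases. Of 78 other genes of the chaperone system with a window, 19 had a pair and 2, *Chordc1* and *Dnajb6*, a triplet. No exact match was found in the windows of *Dnajb1*, and units with a mismatched base were not searched there or elsewhere. Genes with these letters included some called lower (*Hspa1a*, *Hspb1*, *Hsph1*) and some not (*Hspd1*, *Hspe1*, *Hspa1b*). A link between the letters and the calls was not tested, and *Hspa8*, *Hsp90aa1* and *Hsp90ab1* had no window.

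Per kilobase of exon, the 10 genes spanned about 3 orders of magnitude in RPKM. The level in the control brains was 665 ± 11.1 RPKM (SD, n = 4) for *Hsp90ab1*, 432 ± 3.25 for *Hspa8* and 228 ± 3.25 for *Hsp90aa1*. These 3 genes together stood within the highest 100 of the genes tested, *Hsp90ab1* at rank 24, *Hspa8* at 43 and *Hsp90aa1* at 93. The mitochondrial pair followed, with 102 ± 0.927 RPKM for *Hspd1* and 55.6 ± 0.971 for *Hspe1*. The exchange factor *Hsph1* had 26.4 ± 0.422 RPKM and the J-domain gene *Dnajb1* 15.8 ± 0.613. Far below came *Hspb1* with 1.53 ± 0.247, *Hspa1b* with 0.939 ± 0.197 and *Hspa1a* with 0.730 ± 0.0992 RPKM. Over all 8 brains the ranges of neighbours in this order did not overlap from *Hsp90ab1* down to *Hspb1*, whereas those of *Hspb1* and *Hspa1b* and those of *Hspa1b* and *Hspa1a* did. The level of *Hspa1a* per kilobase was above that of 20.9% of the genes tested.

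**Figure D2:**
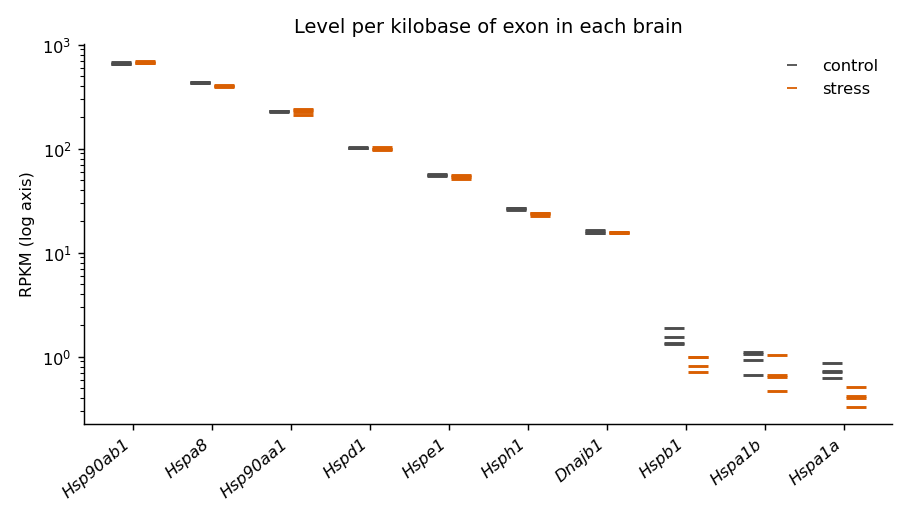
Level of each chaperone gene in RPKM (log axis), 1 dash per brain, control in grey and stress in orange, ordered by the control mean. The genes run from 665 RPKM for Hsp90ab1 to 0.730 RPKM for Hspa1a in the control brains.

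These levels carry a limit of counting. Of the distinct stretches of 100 bases (the length of 1 read of a pair) in the transcripts of *Hspa1a*, 48.6% also occurred in transcripts of other genes, first of all *Hspa1b*, and of those of *Hspa1b* 49.9% did. Read pairs that match several places are left out at the default setting of the counting program, and how many were lost to each gene was not tested. The value was 44.0% for *Hspb1*, whose processed copy *Hsp25-ps1* had 0 or 1 count per brain, and 28.2% for *Hspa8*. *Hsph1*, *Dnajb1* and *Hsp90ab1* shared no such stretch. The antisense gene *Gm20481*, which covers 19.0% of the exon bases of *Hspa1a*, was at 0 in all 8 brains, and a pair that overlaps both would have been counted for neither.

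*Hspa1a* encodes the stress-inducible cytosolic HSP70 (ENSMUSG00000091971.3, a single exon at chr17:34969190-34972156 on mm10). Control F36 had 2.55 CPM, control F37 1.83, control M30 2.18 and control M31 2.11. Stressed F34 had 1.23 CPM, stressed F35 1.501, stressed M28 0.976 and stressed M29 1.17. The highest stressed brain thus lay below the lowest control brain, on 28 to 38 counts against 52 to 70. The Log2FC was -0.83 ± 0.17 (SE; 95% interval -1.17 to -0.49), a drop of 43.8%, with an adjusted p of 0.0012. The exact permutation test gave p = 0.0286 (two-sided), the smallest that 4 brains against 4 allow. Any gene whose groups do not overlap has this p, as did *Hspa8*, *Hsph1* and *Hspb1*, so it is no separate evidence.

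*Hspa1b* encodes almost the same protein from its own single exon (ENSMUSG00000090877.3, chr17:34956436-34959238). It had 2.95, 3.10, 2.61 and 1.86 CPM in controls F36, F37, M30 and M31, and 1.85, 2.92, 1.78 and 1.31 CPM in stressed F34, F35, M28 and M29. The groups overlapped, since stressed F35 was above control M30 and control M31, while the other 3 stressed brains were below every control. The Log2FC was -0.43 ± 0.16 (95% interval -0.76 to -0.11) with an adjusted p of 0.070, which did not pass the threshold. It passed in 3 of the 15 alternatives: without stressed F35 the Log2FC was -0.61 with an adjusted p of 0.017, without control M31 -0.50 with 0.0499, and without the filter on low counts -0.44 with 0.031. In the other 12 the adjusted p was above the threshold, up to 0.36 in the females alone, with 0.19 by DESeq2 and, among brains left out, up to 0.27 without stressed F34 (Log2FC -0.31). Between the sexes *Hspa1b* differed by a Log2FC (female minus male) of 0.52 ± 0.16, with an unadjusted p of 0.0032 and an adjusted p of 0.61.

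The ratio of *Hspa1a* to *Hspa1b* counts within a brain, in which depth cancels, was between 0.591 and 1.13 in the control and between 0.514 and 0.895 in the stressed brains. The log2 ratio had a stress minus control difference of -0.38, which did not pass a two-sided exact permutation test (p = 0.2, adjusted over 3 ratios 0.471). So the larger drop of *Hspa1a* was not shown to differ from that of its neighbour. The sum of both genes, chosen after its values were seen and given without a test, was 5.497, 4.94, 4.79 and 3.97 CPM in controls F36, F37, M30 and M31. In stressed F34, F35, M28 and M29 it was 3.08, 4.42, 2.75 and 2.49 CPM, and stressed F35 alone reached into the control range.

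*Hspa8* encodes HSC70, the constitutive HSP70, which also strips clathrin from vesicles (ENSMUSG00000015656.17, chr9:40800984-40810087). Its CPM was 1869, 1840, 1869 and 1855 in controls F36, F37, M30 and M31, and 1678, 1736, 1727 and 1776 in stressed F34, F35, M28 and M29. All 4 stressed brains were below all 4 controls, with a wider spread among the stressed ones (SD 40.2 against 14.0 CPM). The Log2FC was -0.10 ± 0.025 (95% interval -0.15 to -0.053), a drop of 6.95%, with an adjusted p of 0.0056. Though small as a share, the mean difference from 1858 to 1729 CPM exceeded in CPM that of any other of the 10 genes.

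*Hsph1* encodes HSP105, the HSP110-type exchange factor that releases ADP from HSP70 (ENSMUSG00000029657.15, chr5:149614287-149636376). It had 189, 191, 196 and 193 CPM in controls F36, F37, M30 and M31. The stressed brains F34, F35, M28 and M29 had 163, 175, 176 and 169 CPM. The groups were clearly apart, and stressed F34 was the lowest of all. The Log2FC was -0.17 ± 0.028 (95% interval -0.23 to -0.11), a drop of 11.1%, with an adjusted p of 0.00022, the smallest p of the 10 genes. It passed the threshold in each sex alone, with a Log2FC of -0.16 ± 0.043 in females (adjusted p = 0.023) and -0.17 ± 0.037 in males (adjusted p = 0.0024).

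*Dnajb1*, the HSP40 that starts the HSP70 cycle and is itself strongly heat-inducible, showed no such drop (ENSMUSG00000005483.10, chr8:83608193-83612653). It had 52.8, 49.1, 52.0 and 49.0 CPM in controls F36, F37, M30 and M31, and 49.0, 50.6, 49.7 and 51.0 CPM in stressed F34, F35, M28 and M29. The stressed brains fell within the range of the controls apart from F34 at its very edge. The Log2FC was -0.018 ± 0.038 (95% interval -0.096 to 0.059, adjusted p = 0.81).

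*Hspb1* encodes the small heat shock protein HSP25, which binds unfolded protein without ATP (ENSMUSG00000004951.10, chr5:135887919-135889563). Its CPM was 1.93 in control F36, 1.37 in F37, 1.596 in M30 and 1.41 in M31. It was 1.01 in stressed F34, 1.03 in F35, 0.837 in M28 and 0.725 in M29. All stressed brains were below all controls, on 21 to 28 counts against 39 to 53. The Log2FC was -0.81 ± 0.19 (95% interval -1.19 to -0.42), a drop of 42.9%, with an adjusted p of 0.0043. *Hsph1* and *Hspb1* are also in the study's own list of changed genes, which was made with these animals among others and is no independent evidence.

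The HSP90 genes did not pass the test in either direction. *Hsp90aa1* encodes the inducible form (ENSMUSG00000021270.13, chr12:110690605-110702728) and had 900, 880, 909 and 902 CPM in controls F36, F37, M30 and M31. In stressed F34, F35, M28 and M29 it had 837, 927, 884 and 938 CPM, so the stressed brains lay on both sides of the controls, F34 lowest and M29 highest. The Log2FC was -0.0025 ± 0.030 (95% interval -0.063 to 0.058, adjusted p = 0.97), and its sign turned when single brains were left out. *Hsp90ab1*, the constitutive form (ENSMUSG00000023944.14, chr17:45567775-45573271), was between 1969 and 2040 CPM in the control and between 1988 and 2076 CPM in the stressed brains. Its Log2FC was 0.021 ± 0.025 (95% interval -0.029 to 0.072, adjusted p = 0.64). The ratio of *Hsp90aa1* to *Hsp90ab1* counts was between 0.441 and 0.458 in the control and between 0.421 and 0.462 in the stressed brains (log2 difference -0.025, exact permutation test, two-sided, p = 0.486, adjusted over 3 ratios 0.486).

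The mitochondrial chaperonin genes share a promoter region and overlap by 112 bases. *Hspd1* encodes HSP60 (ENSMUSG00000025980.14, chr1:55077835-55088243) and had 269, 267, 273 and 270 CPM in controls F36, F37, M30 and M31, and 258, 261, 264 and 275 CPM in stressed F34, F35, M28 and M29. *Hspe1* encodes HSP10 (ENSMUSG00000073676.4, chr1:55088132-55091307) and had 83.9, 80.6, 82.0 and 81.3 CPM in the same controls, and 78.2, 75.5, 80.3 and 81.7 CPM in the same stressed brains. For both genes 3 of the 4 stressed brains were below every control, and stressed M29 was not. The Log2FC was -0.028 ± 0.026 (95% interval -0.082 to 0.026, adjusted p = 0.55) for *Hspd1* and -0.054 ± 0.032 (95% interval -0.12 to 0.011, adjusted p = 0.29) for *Hspe1*. The ratio of *Hspd1* to *Hspe1* counts stayed between 3.20 and 3.46 in all 8 brains (log2 difference 0.027, exact permutation test, two-sided, p = 0.314, adjusted over 3 ratios 0.471). Pseudogene rows named after *Hspd1* summed to 8 to 25 counts per brain and those named after *Hspe1* to 1 to 5.

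**Figure D3:**
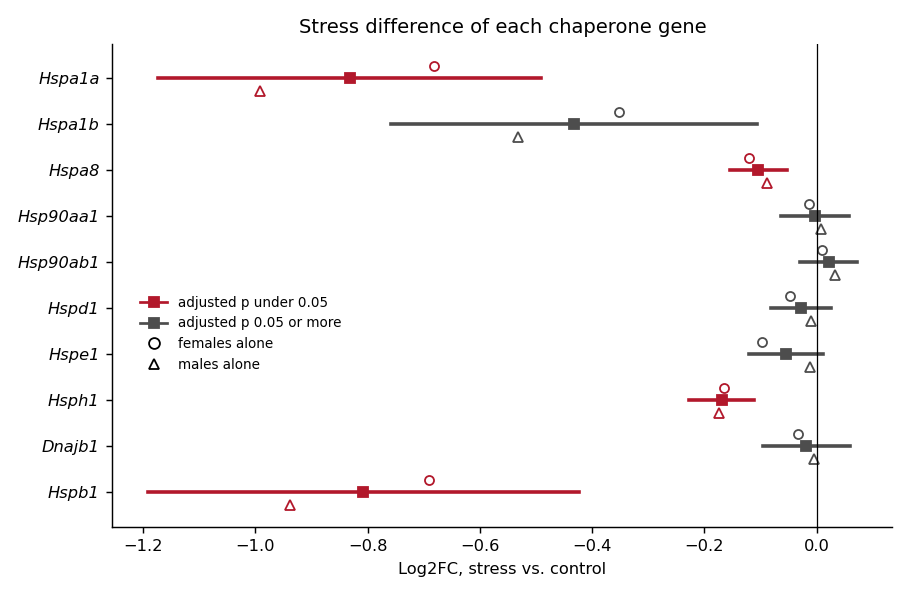
Log2FC (stress vs. control, horizontal axis) of each chaperone gene with its 95% interval (squares and bars, 4 brains against 4), red where the adjusted p is under 0.05, with the females alone as open circles and the males alone as open triangles. Hspa1a and Hspb1 lie near -0.8 with wide intervals, while Hspa8 and Hsph1 lie near -0.1 and -0.2 with narrow ones.

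As the most abundant pair, *Hspa8* and *Hsp90ab1* were also set against each other within each brain, a choice made after the values were seen and given without a test. The count ratio of *Hspa8* to *Hsp90ab1* was 0.949, 0.922, 0.916 and 0.942 in controls F36, F37, M30 and M31. It was 0.844, 0.866, 0.852 and 0.856 in stressed F34, F35, M28 and M29, below every control. Since *Hspa8* alone already lay below every control in the stressed brains, the ratio is no separate evidence. All 10 genes together took between 0.529% and 0.543% of a control library's counts and between 0.506% and 0.534% of a stressed library's, so these ranges overlapped. Stressed F34 had the lowest CPM of all brains for 5 of the 10 genes, and control F36 the highest for 5.

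Fitted by sex, with 2 brains against 2, *Hspa1a*, *Hspb1* and *Hsph1* were lower in stressed males and *Hsph1* alone in stressed females at an adjusted p under 0.05. Of all genes tested 4.81% were called lower in the males alone and 2.27% in the females alone. The Log2FC of *Hspa1a* was -0.99 ± 0.24 in males (adjusted p = 0.0075) and -0.68 ± 0.23 in females (adjusted p = 0.095). That of *Hspb1* was -0.94 ± 0.28 in males (adjusted p = 0.032) and -0.69 ± 0.26 in females (adjusted p = 0.14). That of *Hspa8* was -0.089 ± 0.034 in males (adjusted p = 0.10) and -0.12 ± 0.036 in females (adjusted p = 0.054). The test of the difference itself, a sex by stress interaction, called none of the 10 genes (adjusted p between 0.87 and 0.99, no unadjusted p under 0.05) and 0.0056% of all genes tested. Between females and males no chaperone was called, against 0.0896% of all genes tested, and *Hspa1b* alone had an unadjusted p under 0.05.

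The rest of the chaperone system was read from lists fixed for their function. Over 8 lists and the HSF1-induced genes there were 97 genes other than the 10, of which 88 were tested. Beside 6.49% called higher and 7.27% lower among all genes tested, none of the 88 was called higher and 2 were called lower. These were *Hsbp1*, which encodes a protein that binds HSF1, with a Log2FC of -0.11 ± 0.027 (adjusted p = 0.0049), and *Dnajb2*, a J-domain gene expressed strongly in neurons, with -0.16 ± 0.038 (adjusted p = 0.0046). The median Log2FC of the 88 was -0.0030. *Hsf1* fell short of the threshold with a Log2FC of -0.12 ± 0.045 (adjusted p = 0.064), and *Hsf2*, a related factor, had 0.039 ± 0.030 (adjusted p = 0.44). *Bag3*, an HSP70 exchange factor that HSF1 induces, had -0.23 ± 0.15 (adjusted p = 0.34).

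By role, 1 of 6 genes for heat shock factors and their partners (*Hsbp1*), 0 of 8 other HSP70 and HSP110 genes, 1 of 13 J-domain genes (*Dnajb2*), 0 of 9 HSP70 exchange factors and adaptors and 0 of 17 HSP90 co-chaperones were called lower. None of 13 other mitochondrial chaperone and protease genes, 4 other small heat shock protein genes and 14 genes of the cytosolic chaperonin and prefoldin was called either. Of the 17 HSP90 co-chaperones 16 had a negative Log2FC, with a median of -0.032. Of the 14 chaperonin and prefoldin genes 1 had a negative Log2FC, with a median of 0.036. Of 19 other genes widely induced by HSF1, 15 are also in another of these lists, several of them among the HSP90 co-chaperones. Of the 19, 15 had a negative Log2FC, with a median of -0.032, and none was called. For comparison, the median over all genes tested was 0.0015. The counts of signs were not tested.

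Chaperones of the endoplasmic reticulum (ER) made up a further list, which was not tested against the others. Of 16 tested genes, 12 were called lower and 1 higher, with a median Log2FC of -0.14. Among all genes tested, 7.27% were called lower and 6.49% higher, shares that also stand beside the immediate early genes below. *Hspa5*, the ER member of the HSP70 family, had a Log2FC of -0.24 ± 0.028 (adjusted p = 4.7e-06), *Manf* -0.26 ± 0.034 (adjusted p = 1.5e-05) and *Creld2* -0.36 ± 0.048 (adjusted p = 1.8e-05). *Dnajc10*, an ER J-domain reductase, rose by 0.14 ± 0.030 (adjusted p = 0.0025). Immediate early genes, a readout of recent stimulation, showed 2 of 15 lower, *Fosl2* (Log2FC -0.38 ± 0.056, adjusted p = 5.5e-05) and *Junb* (-0.39 ± 0.13, adjusted p = 0.042), and 1 higher, *Btg2* (0.18 ± 0.044, adjusted p = 0.0069).

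**Figure D4:**
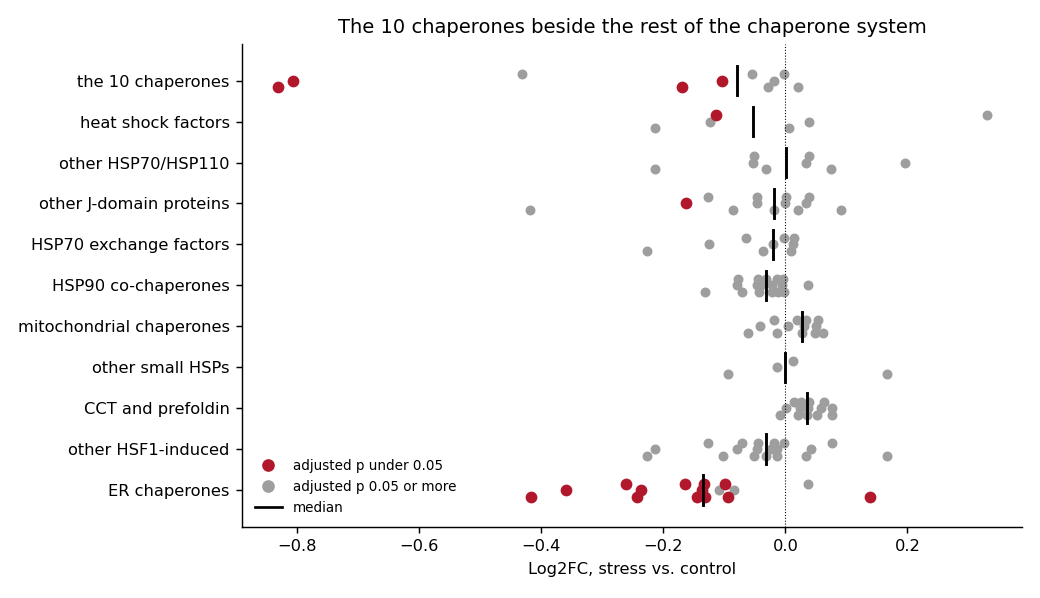
Log2FC (stress vs. control, horizontal axis) of every tested gene in the chaperone lists, 1 point per gene, red where the adjusted p is under 0.05, with black lines at the medians; genes may be in more than 1 list. In the lists other than the 10 and the ER chaperones, only Hsbp1 and Dnajb2 are red. Of 16 ER chaperones, 12 are red below 0 and 1 is red above 0.

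Cell type markers moved between the groups as well, and their part in the results above was not tested. The counts of markers called stand beside 7.27% called lower and 6.49% higher among all genes tested. The summed level of 7 markers of dividing cells was between 443.6 and 479.5 CPM in the control and between 503.7 and 582.7 in the stressed brains, with 6 of 7 called higher. For 7 endothelial markers it was 168.5 to 185.2 against 151.3 to 162.0 CPM, with 4 of 7 called lower. For 8 neuronal markers it was 6511 to 6768 against 6409 to 6682 CPM (5 of 8 called lower), and for 7 radial glia markers 1518 to 1609 against 1549 to 1676 CPM (4 of 7 called higher). The labelled tissue was thus rich in neuronal and radial glia RNA in every brain.

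Other cell types had low or overlapping sums. Red cell markers summed to 364.3 to 411.8 CPM in the control and 370.2 to 384.5 in the stressed brains, with 2 of 8 called higher and 1 lower. Meningeal markers summed to 15.97 to 29.1 against 20.7 to 63.3 CPM (3 of 5 tested called higher), and choroid plexus markers to 2.68 to 11.2 against 3.14 to 33.4 CPM (1 of 5 called higher). Microglial markers summed to 26.9 to 30.2 against 25.4 to 29.1 CPM (none of 6 called). Skin markers summed to 14.2 to 15.51 against 13.6 to 15.9 CPM (1 of 4 tested called lower). Among them *Krt5*, *Krt14* and *Krt15* had at most 3 counts in any brain, while *Krt10* had 194 to 235, *Perp* 88 to 142 and *Sfn* 45 to 70. Muscle markers summed to 5.08 to 6.12 against 5.54 to 6.16 CPM (none of 4 tested called). *Myog* and *Tnnc2* were at 3 counts or fewer, while *Myh8* had 47 to 74 and *Acta1* 36 to 68.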

How the data were processed

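RNA of 8 E15.5 brains was captured with oligo(dT) and sequenced as paired reads. The authors trimmed reads with Trim Galore, aligned them to mm10 with TopHat2 2.1.1 and counted pairs on GENCODE exons with featureCounts 1.6.3. The deposited values are raw counts per gene. Gene symbols were matched for 54723 of the 54752 identifiers.

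Genes passing filterByExpr (minimum count 10, by group) were normalized by TMM and tested with edgeR 4.0.16 (R 4.3.3, limma 3.58.1), with sex and condition as terms, and adjusted by the Benjamini-Hochberg method over all 17865 genes. The study's batch term was not used because no batch is named for these libraries. CPM used TMM-scaled totals and RPKM divided CPM by exonic kilobases. The SE is the Log2FC divided by the root of F. Ratios and single genes were compared by exact permutation over brains. Alternatives were DESeq2 1.42.0, other size factors, no filter, no sex term, each sex alone and each brain left out. The tests were checked on simulated data.

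The 10 genes, the lists and the tests were chosen with earlier results of these data known. All 10 genes are named, with *Hsf1*, *Hsf2*, *Bag3* and, from each list other than markers, up to 3 called genes per direction by smallest p. Each brain is 1 replicate, and intervals cover littermates only.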

Additional observations from a re-analysis of the deposited data

Results flagged for a closer look

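The count ratio of *Hspd1* to *Hspe1* in control F36, 3.20, stood apart from those of the other 3 control brains, which were 3.32, 3.33 and 3.32. Its gap to the nearest was 0.888 of the group's range, above Dixon's 95% critical value for 4 samples. Of 26 groups of 4 values examined (the 10 genes and 3 ratios in each condition) this was the single one, and chance gives about 1 in 20.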

How the results depend on the processing

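The count of 4 chaperones called lower kept within 1.5 times under every alternative but 1, the females alone, where it was 1, and no alternative called a chaperone higher. Leaving out single brains gave 4 to 5 called lower, with *Hspa1b* as the added gene without control M31 or stressed F35. *Hspa1a*, *Hspa8*, *Hsph1* and *Hspb1* were called in all 8 of these fits. Over all genes, the calls higher fell from 1160 to 748 with DESeq2, 295 in the females alone and 664 in the males alone, and the calls lower from 1298 to 407 in the females alone; DESeq2 changed no call among the 10 genes. Without single brains the calls higher were between 736 and 1057 and the calls lower between 854 and 1308, both lowest without stressed M29. The Log2FC of *Hsp90aa1* turned positive in the males alone (0.0076) and without control F36, stressed M28 or stressed F34 (-0.032 to 0.028 over all brains left out), and that of *Dnajb1* without control F36 (0.0043; -0.037 to 0.0043). The 3 ratios moved by less than their spread in each alternative. No paired analysis was possible because the groups share no replicate numbers. Depth limits *Hspa1a*, *Hspa1b* and *Hspb1*, which had 21 to 88 counts per brain.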
